A study of Mus musculus with 6 samples.

Results

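The genes examined were the metallothioneins Mt1, Mt2 and Mt3 and the antioxidant genes Gclc, Gclm, Slc7a11, Hmox1, Nqo1, Srxn1 and Gstm1. They were measured in cell fractions enriched for astroglia from the neonatal mouse cerebellum. The genes were chosen by name, and every probe of the array that carries one of these names and is not a control was taken. All 10 genes were found, with 13 of the 55681 probes and 10 of the 34836 gene names on the array. Mt1, Hmox1 and Gstm1 had 2 probes each and the other genes had 1, and each probe was printed as 1 spot.

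A pair of magnetically isolated cell fractions was compared, which differ in the surface antigen ACSA-2, carried by the protein product of Atp1b2, and share GLAST, the glutamate transporter encoded by Slc1a3. The labels name A+/G+ cells as positive for both antigens, and A-/G+ cells as positive for GLAST and negative for ACSA-2. The paper describes both fractions as enriched, and it counted the rare cells with ACSA-2 but no GLAST as A+/G+. The 6 samples, 3 of each fraction, came from untreated wild-type mice and held 50000 cells each. The labels give the strain as CD1 and the age as postnatal days 1 to 3, whereas the methods give a C57BL/6 background for wild-type mice and an earlier age window. According to the methods, A+/G+ cells were selected with ACSA-2 beads, and no selection for GLAST is described for them. A-/G+ cells were first depleted of cells carrying L1CAM, ACSA-2, CD45, PSA-NCAM or Ter119 and then selected for GLAST. The isolation steps therefore differed together with the fraction and cannot be told apart from it. Each sample was hybridized to 1 Agilent array with the single dye Cy3, and the signals below are log2 intensities after quantile normalization, given for replicates 1, 2 and 3 in that order.

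Metallothioneins are small, cysteine-rich proteins that bind zinc and copper and take up reactive oxygen species. Glutathione, the main thiol of the cell, is made from cysteine, glutamate and glycine, and in the brain astrocytes are known to supply neighbouring neurons with its precursors. Many of the enzymes that make or use glutathione are transcribed under the control of NRF2, a transcription factor that is held back by KEAP1 and binds antioxidant response elements, whereas metallothionein genes are switched on by the zinc sensor MTF1 through metal response elements.

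The fractions were compared with limma over all probes, and a probe passed at a Benjamini-Hochberg adjusted p of 0.05 or less. A call needed, in addition, a distance of 4-fold or more between the medians. The value of a gene with several probes is that of the probe with the highest mean signal. By this measure 3 of the 10 genes passed with a higher signal in A+/G+, which were Slc7a11, Mt1 and Mt3, and 1 passed with a higher signal in A-/G+, which was Nqo1. Over all probes tested, 4.65% passed in the first direction and 4.64% in the second. Slc7a11 was the only gene called, against 1.53% of all probes called higher in A+/G+ and 0.399% called higher in A-/G+. For the other 6 genes, Mt2, Gclc, Gclm, Hmox1, Srxn1 and Gstm1, the adjusted p from limma lay between 0.078 and 0.823.

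In 8 of the 10 genes the lowest A+/G+ array exceeded the highest A-/G+ array, in Nqo1 the order was reversed, and in Gclc the fractions overlapped. Gstm1 is counted among the 8 by its brighter probe, which the array's annotation places on another chromosome than the gene, whereas the fractions overlapped in its second probe. Of all probes, 12.7% were separated in this way with A+/G+ above, and 24.3% with A-/G+ above. With 3 arrays against 3, an exact permutation test gives a two-sided p of 0.1 for such a separation, which is the smallest it can reach. The median difference of the 10 genes was 0.59 on the log2 scale, positive for A+/G+, whereas it was -0.043 over all probes. Signals were well above background on all 6 arrays for 8 genes, the exceptions being Slc7a11 and Gclm. Among the probes of the array that met this condition, 7.01% passed with a higher signal in A+/G+ and 11.9% with a higher signal in A-/G+.

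The arrays were not equally bright. The 75th percentile of the intensity before normalization was 332 to 334 on the A+/G+ arrays and 56.6 to 251 on the A-/G+ arrays, and 26476 to 26655 probes were well above background in the first fraction and 18340 to 24730 in the second. Each fraction had been hybridized on a slide of its own, and the slide and the fraction therefore cannot be told apart. The Atp1b2 signal of A+/G+ exceeded that of A-/G+ by 2.16 log2 units (limma, adjusted p = 0.00725), and Slc1a3 was bright on all arrays, with a difference of -1.19 that did not pass (limma, adjusted p = 0.0733). In such pooled samples, fewer cells of a type and less RNA per cell cannot be told apart.

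**Figure D1:**
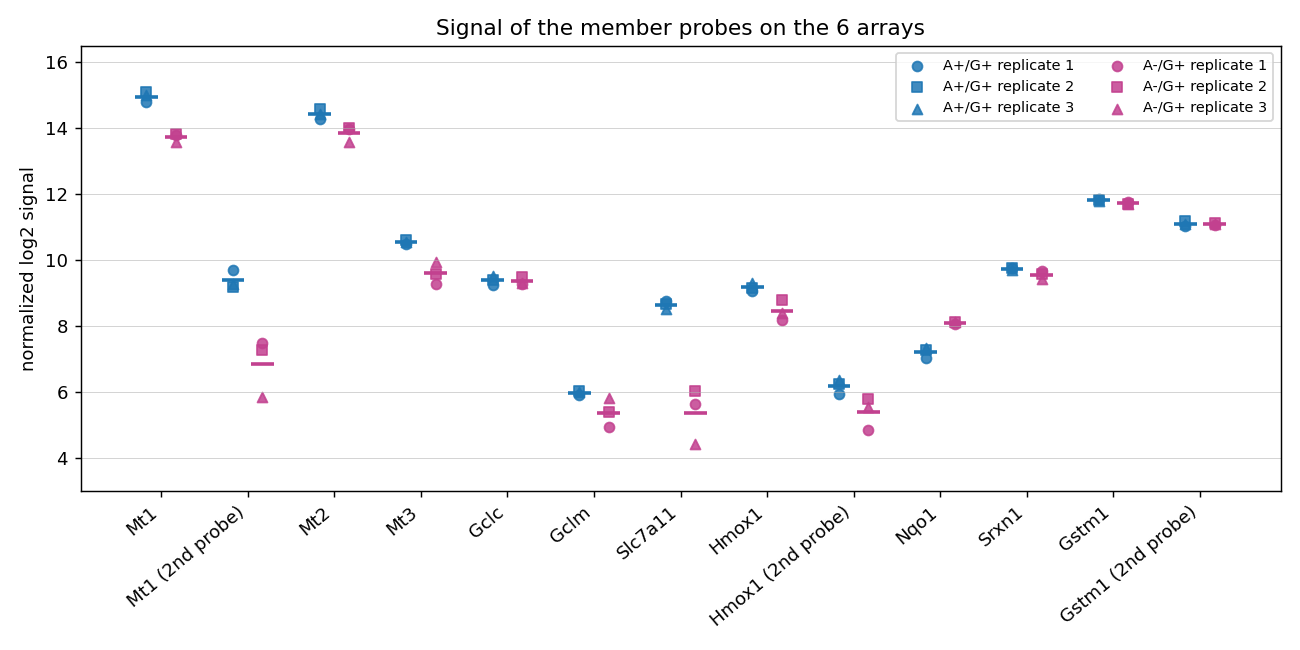
Normalized log2 signal (vertical axis) of the 13 probes (horizontal axis) on the 3 A+/G+ arrays (blue) and the 3 A-/G+ arrays (pink), with circles, squares and triangles for replicates 1, 2 and 3 and horizontal lines for the means. The blue and pink points of Slc7a11 and of both Mt1 probes are apart, the pink points of Nqo1 are above its blue points, and Gclc overlaps.

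Promoter sequences are shown for Slc7a11, the gene with the largest difference of the 10, and for Mt2, whose window held the most motif matches. They comprise the 250 bases before the annotated start of the transcript, from RefSeq on GRCm38.p6, at chr3:50443614-50443863 on the minus strand for Slc7a11 and chr8:94172368-94172617 on the plus strand for Mt2. Capitals mark matches on either strand to the antioxidant response element core TGACNNNGC, to the metal response element core, written as TGCACNC or TGCGCNC, and to the amino acid response element core TGATGNAA, which ATF4 is known to bind in genes of amino acid supply.
Slc7a11: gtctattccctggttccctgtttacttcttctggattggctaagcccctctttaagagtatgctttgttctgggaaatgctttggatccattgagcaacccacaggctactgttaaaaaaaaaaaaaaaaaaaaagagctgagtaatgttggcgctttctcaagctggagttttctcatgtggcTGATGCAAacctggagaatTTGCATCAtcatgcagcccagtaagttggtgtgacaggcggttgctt
Mt2: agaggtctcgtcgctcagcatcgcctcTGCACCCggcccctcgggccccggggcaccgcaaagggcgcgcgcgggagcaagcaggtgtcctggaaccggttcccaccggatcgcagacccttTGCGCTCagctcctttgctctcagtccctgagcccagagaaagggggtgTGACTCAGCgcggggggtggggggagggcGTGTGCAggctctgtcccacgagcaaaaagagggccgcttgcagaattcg
The Slc7a11 window held 2 matches to the amino acid response element core in opposite orientations, from 66 to 59 and from 47 to 40 bases before the start, and no match to the other cores. At least 1 such match was present in 3.45% of the 32851 windows of the same length in the table, and 2 or more were present in 13 windows. The Mt2 window held 3 matches to the metal response element core and 1 to the antioxidant response element core, TGACTCAGC from 79 to 71 bases before the start. Over all windows, 21.4% held the metal response element core, 5.17% held it at least 2 times and 10.2% held the antioxidant response element core. Of the 8 genes with an entry in the table, Gclm held 1 match to the antioxidant core, which overlaps the first of its 2 matches to the metal response element core. Mt1, Srxn1 and Gstm1 held 1 match to the metal response element core in each window. The 2 windows of Gstm1 overlap, and their match is the same site. Bases outside these windows, or before other starts of a gene, were not searched. Mt3 and Nqo1 held none of the 3 cores in these bases. A match in these letters is a description and was not tested for binding.

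Slc7a11 encodes xCT, the light chain of the cystine/glutamate exchanger, which brings in the cystine from which cysteine for glutathione is made. Its probe, on the minus strand of chr3:50169700-50169759 (mm9), gave log2 signals of 8.75, 8.67 and 8.52 in A+/G+ and of 5.63, 6.03 and 4.41 in A-/G+. All A+/G+ arrays were far above the A-/G+ arrays, among which the signal was well above background on replicates 2 and 3 and not on replicate 1. The means were 8.65 ± 0.12 (SD, n = 3) and 5.36 ± 0.84 (SD, n = 3), a difference of 3.29 with a 95% interval of 2.14 to 4.44 (limma, adjusted p = 0.0194), and the medians were 8.21-fold apart. The A-/G+ median is the value of replicate 1, which was not well above background, so that the fold is uncertain. It was 3.94-fold after normexp background correction, under the limit for a call, and 12.5-fold without A-/G+ replicate 2. When any single A+/G+ array was left out, the adjusted p from limma rose to between 0.0805 and 0.0874, while the difference remained at 2.81 to 3.63 over all arrays left out in turn. The methods' t-test gave an adjusted p of 0.0521.

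Slc3a2 encodes the heavy chain that carries xCT to the membrane and is shared with other amino acid transporters. It differed by 0.40 on the log2 scale, without passing (limma, adjusted p = 0.0712). Of the log2 ratio of Slc7a11 to Slc3a2 only the change between fractions can be read, and it was 2.89 larger in A+/G+, without overlap between the fractions. In all, 6 such ratios were formed, and for this one the exact permutation p was 0.1 (two-sided), or 0.2 after Benjamini-Hochberg adjustment.

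Glutamate-cysteine ligase catalyses the rate-limiting step of glutathione synthesis. Gclc, its catalytic subunit, gave log2 signals of 9.25, 9.41 and 9.52 in A+/G+ and of 9.26, 9.48 and 9.31 in A-/G+ (chr9:77641296-77641355, mm9). The fractions overlapped, and the difference of 0.04 had an interval of -0.22 to 0.31 (limma, adjusted p = 0.823). Gclm, the modifier subunit, was dim. Its signals were 5.91, 6.03 and 5.99 in A+/G+ and 4.92, 5.40 and 5.80 in A-/G+, where replicate 1 was not well above background (chr3:121962174-121964809, mm9). All A+/G+ arrays were above the A-/G+ arrays, replicate 3 of A-/G+ by a small margin, and the difference of 0.61 had an interval of 0.00 to 1.21 that did not pass (limma, adjusted p = 0.214). The log2 ratio of Gclm to Gclc differed by 0.56, with overlapping fractions (exact permutation p = 0.2, two-sided).

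**Figure D2:**
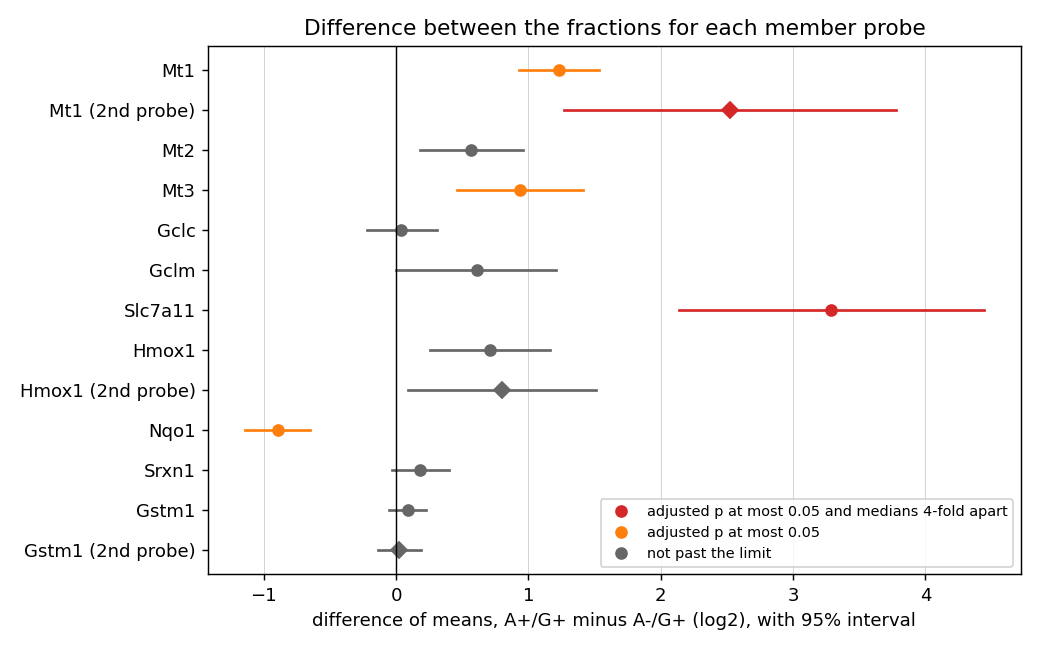
Log2 difference of the means, taken as A+/G+ minus A-/G+ (horizontal axis), for each probe (vertical axis), with the 95% interval from limma (bars) and diamonds for the second probe of a gene. Nqo1 is the only gene whose interval is below 0, and the intervals of Gclc, Srxn1 and both Gstm1 probes include 0.

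The 3 metallothionein genes lie side by side on chromosome 8, in the order Mt3, Mt2 and Mt1. On mm9 the probe of Mt2 starts 19444 bases after that of Mt3, and that of Mt1 6794 bases after that of Mt2. Mt1, a widely expressed and metal-inducible form, gave log2 signals of 14.79, 15.10 and 15.00 in A+/G+ and of 13.79, 13.83 and 13.57 in A-/G+ (chr8:96704165-96704224). The fractions were 1.23 apart, or 2.31-fold in the medians, with an interval of 0.93 to 1.53 (limma, adjusted p = 0.00928), and the spread within each fraction was at most 0.16 (SD, n = 3).

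A second Mt1 probe, designed on a cDNA clone and placed at chr8:96703844-96703903, was dimmer and more variable. It gave 9.69, 9.18 and 9.28 in A+/G+ and 7.48, 7.27 and 5.84 in A-/G+. Its difference was 2.52, with an interval of 1.27 to 3.78 (limma, adjusted p = 0.0435), and its medians were 4.03-fold apart, just past the limit for a call. The second probe passed without A-/G+ replicate 3 but in none of the other 5 fits with an array left out (limma, adjusted p = 0.0593 to 0.147), nor by the methods' t-test (adjusted p = 0.0929). Its medians were 6.61-fold apart without A-/G+ replicate 1, 6.14-fold without A-/G+ replicate 2 and 3.5-fold after normexp. The probes of Mt1 had the same direction but differed in size, and the intervals overlapped between 1.27 and 1.53.

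Mt2, the partner of Mt1 that responds to the same metals, gave 14.29, 14.58 and 14.42 in A+/G+ and 13.99, 14.01 and 13.59 in A-/G+ (chr8:96697371-96697430). The A+/G+ arrays were above the A-/G+ arrays, but the difference of 0.57, with an interval of 0.18 to 0.96, did not pass (limma, adjusted p = 0.0918). Mt3, a form that is found mostly in the brain and is little induced by metals, gave 10.48, 10.61 and 10.55 in A+/G+ and 9.28, 9.59 and 9.95 in A-/G+ (chr8:96677927-96677986). Its fractions were 0.94 apart with an interval of 0.46 to 1.41 (limma, adjusted p = 0.0452), close to the limit. Leaving out any one array except A-/G+ replicate 3 raised the adjusted p of Mt3 from limma above the limit, to at most 0.163.

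Whether the metallothioneins differed from each other in the size of the change was examined on their log2 ratios within each array. The ratio of Mt1 to Mt2 was 0.50 to 0.58 in A+/G+ and -0.20 to -0.02 in A-/G+, a difference of 0.67 without overlap (exact permutation p = 0.1, two-sided, 0.2 after adjustment over the 6 ratios). The ratios of Mt1 to Mt3 and of Mt2 to Mt3 differed by 0.30 and -0.37, and their fractions overlapped (exact permutation p = 0.4 for each, two-sided).

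Nqo1 encodes a quinone reductase and is a much used readout of NRF2. It was the only gene of the 10 that was higher in A-/G+. Its signals were 7.02, 7.28 and 7.32 in A+/G+ and 8.07, 8.11 and 8.13 in A-/G+ (chr8:109912440-109912499, minus strand, mm9), so that all A-/G+ arrays were above the A+/G+ arrays with little spread. The difference was -0.89, with an interval of -1.14 to -0.65 (limma, adjusted p = 0.0117), and the medians were 1.77-fold apart. Without A+/G+ replicate 2 the adjusted p from limma was 0.0534, and without A+/G+ replicate 3 that of Mt1 was 0.0532. In each other case of a single array left out, both genes passed.

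Hmox1, the inducible haem oxygenase, which breaks haem down to biliverdin, iron and carbon monoxide, gave 9.06, 9.16 and 9.29 in A+/G+ and 8.19, 8.79 and 8.40 in A-/G+ (chr8:77624207-77624266, mm9). The A+/G+ arrays were above the A-/G+ arrays, and the difference of 0.71, with an interval of 0.26 to 1.16, did not pass (limma, adjusted p = 0.078). Its second probe, at chr8:77620797-77620856, was dimmer, with 5.95, 6.24 and 6.37 in A+/G+ against 4.85, 5.77 and 5.54 in A-/G+. The second probe was not well above background on A-/G+ replicate 1. Its difference was 0.80, and it did not pass either (limma, adjusted p = 0.167). After normexp background correction the differences were 0.60 for the brighter probe and 0.33 for the second. The log2 ratio of Hmox1 to Nqo1 was 1.88 to 2.03 in A+/G+ and 0.12 to 0.68 in A-/G+, so that these NRF2-responsive genes were 1.60 apart in their change (exact permutation p = 0.1, two-sided, 0.2 after adjustment).

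Srxn1, sulfiredoxin, which restores overoxidized peroxiredoxins, gave 9.76, 9.77 and 9.69 in A+/G+ and 9.67, 9.59 and 9.42 in A-/G+ (chr2:151937009-151937068, mm9). The fractions did not overlap, but lay close together, with a difference of 0.18 and an interval of -0.03 to 0.40 (limma, adjusted p = 0.295). Gstm1 encodes a glutathione S-transferase, which couples glutathione to electrophiles. Its brighter probe gave 11.85, 11.81 and 11.78 in A+/G+ and 11.77, 11.70 and 11.69 in A-/G+, a difference of 0.09 with an interval of -0.05 to 0.23 (limma, adjusted p = 0.423). The array's annotation places this probe on chromosome 5 and the second one on chromosome 3 (chr3:107815595-107815654, mm9), where RefSeq has the gene. The second probe gave 11.04, 11.19 and 11.11 against 11.05, 11.12 and 11.10, and its difference of 0.02 had an interval of -0.14 to 0.19 (limma, adjusted p = 0.837). Gstm1 belongs to a family of related genes, and whether either probe also reads another of them was not tested. The values of both probes are therefore uncertain with respect to the gene.

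The other genes of these pathways were taken from lists of 132 genes, of which 130 were measured. The lists were chosen with earlier results of these data known, so that the shares below only describe them. Of these, 24 passed with a higher signal in A+/G+, or 18.5%, and 6 passed with a higher signal in A-/G+, or 4.62%, beside 4.65% and 4.64% of all probes. The median difference of the listed genes was 0.23, and 113 reached well above background on each of the 6 arrays. The 24 and 6 are counted over all 130 genes and not over these 113. Among all probes of the array that were well above background on all 6 arrays, 7.01% passed with a higher signal in A+/G+ and 11.9% with a higher signal in A-/G+. Without A-/G+ replicate 1, the dimmest array, 15 and 4 genes passed, and the share over all probes in that fit is not given.

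NRF2 itself, encoded by Nfe2l2, differed by 0.29 with an interval of -0.15 to 0.73 (limma, adjusted p = 0.41), and its inhibitor Keap1 by -0.39 (adjusted p = 0.3). Of the 11 genes of NRF2 and its regulators, 1 passed, and the median of the list was -0.27. The gene that passed was Maff, a small MAF protein that pairs with NRF2, which was higher in A+/G+ by 1.18 (limma, adjusted p = 0.0233). The other small MAF genes of the list, Mafg and Mafk, differed by -0.51 and -0.68 without passing (limma, adjusted p = 0.0689 and 0.193). Of 20 other NRF2 target genes, 5 were higher in A+/G+ and 2 were higher in A-/G+ (median 0.23). Me1, the malic enzyme that makes NADPH, and Fth1, the ferritin heavy chain that stores iron, were higher in A+/G+ by 1.61 and 0.83, as was the carbonyl reductase Cbr3 by 0.78 (limma, adjusted p = 0.0494). The others were Blvrb and Prdx1. Txnrd1, thioredoxin reductase, and G6pdx, which feeds the pentose phosphate pathway, were higher in A-/G+, with differences of -0.62 and -0.43. Prdx1 and G6pdx are named to complete these counts and were chosen after their values were seen.

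Of 11 genes of glutathione synthesis and turnover besides the members, 1 was higher in A+/G+ and 2 were higher in A-/G+ (median 0.40). Oplah, which recovers glutamate from oxoproline, differed by 0.75, whereas Ggct, which releases oxoproline from glutamyl peptides, differed by -1.45 (limma, adjusted p = 0.0123) and the glutathione conjugate exporter Abcc1 by -0.47. Of 8 glutathione peroxidases, 1 passed, Gpx7, with a difference of 1.47 (median of the list -0.10). Among 22 other glutathione S-transferases, 3 were higher in A+/G+, Mgst2, Gstt1 and Gstt2, with differences of 1.18, 1.01 and 0.87, and Gsto1 was higher in A-/G+ with a difference of -1.01 (median 0.03). Mgst2 did not rise well above background in A-/G+. Its A+/G+ signals were 4.40, 4.62 and 4.34. On A-/G+ replicates 1 and 2, the lowest signals well above background were higher, 5.64 and 4.95. The difference of Mgst2 was 0.68 after the 75th percentile shift (limma, adjusted p = 0.192) and 0.29 after normexp. Its size, and whether it differs at all, are therefore uncertain.

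In the thioredoxin and peroxiredoxin system, 5 of 19 genes were higher in A+/G+ and 1 was higher in A-/G+ (median 0.12). Prdx6, a peroxiredoxin that uses glutathione, differed by 1.60 (standard error 0.0905, limma, adjusted p = 0.0038), the glutaredoxin Glrx by 1.42 and the thioredoxin Txn1 by 0.63. Txnrd1 is the gene higher in A-/G+. Of the 4 superoxide dismutase and catalase genes, Sod3, the extracellular dismutase, was higher in A+/G+ by 2.04 (limma, adjusted p = 0.00596), whereas Sod1, Sod2 and Cat did not pass, with differences of 0.24, 0.09 and -0.32. Of the 4 haem oxygenase partners, the biliverdin reductase Blvrb was higher in A+/G+ by 0.51, and Hmox2, the constitutive haem oxygenase, differed by -0.03 (limma, adjusted p = 0.906).

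Among 17 genes of metal handling around the metallothioneins, 4 were higher in A+/G+ and none was higher in A-/G+ (median 0.45). Among the 4 was Slc30a3, named after its value was seen, which was at background in both fractions and whose difference went from 1.08 to -0.07 after a shift to the 75th percentile. The zinc importer Slc39a12 had log2 signals of 9.66, 9.32 and 9.50 in A+/G+ and of 5.93, 5.35 and 5.64 in A-/G+, all well above background. Its fractions were 3.85 apart (standard error 0.182, limma, adjusted p = 0.00308), or 14.5-fold in the medians. On A-/G+ replicates 1 and 2 its signals lay close to the lowest ones well above background, 5.64 and 4.95, so that the fold is uncertain. After normexp the difference was 2.81 and the medians were 7.06-fold apart. Ceruloplasmin, the copper-carrying ferroxidase encoded by Cp, was higher in A+/G+ by 2.18, and the zinc and manganese importer Slc39a8 by 0.88. Mtf1, the metal-responsive activator of Mt1 and Mt2, differed by -0.27, and the zinc exporter Slc30a1 by 0.72, and neither passed (limma, adjusted p = 0.159 and 0.111).

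Of 12 genes of the ATF4 amino acid response, which is known to act on Slc7a11, 2 were higher in A+/G+ and 1 was higher in A-/G+ (median 0.42). Cebpb, a transcription factor of the stress response, was higher in A+/G+ by 2.35 (limma, adjusted p = 0.0106) and was called. After normexp its difference was 1.91 and its medians were 3.44-fold apart, under the limit for a call. Psat1 and Phgdh, both of serine synthesis, differed in opposite directions, by 0.58 and -0.69, and Atf4 itself differed by 0.43 without passing (limma, adjusted p = 0.135).

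**Figure D3:**
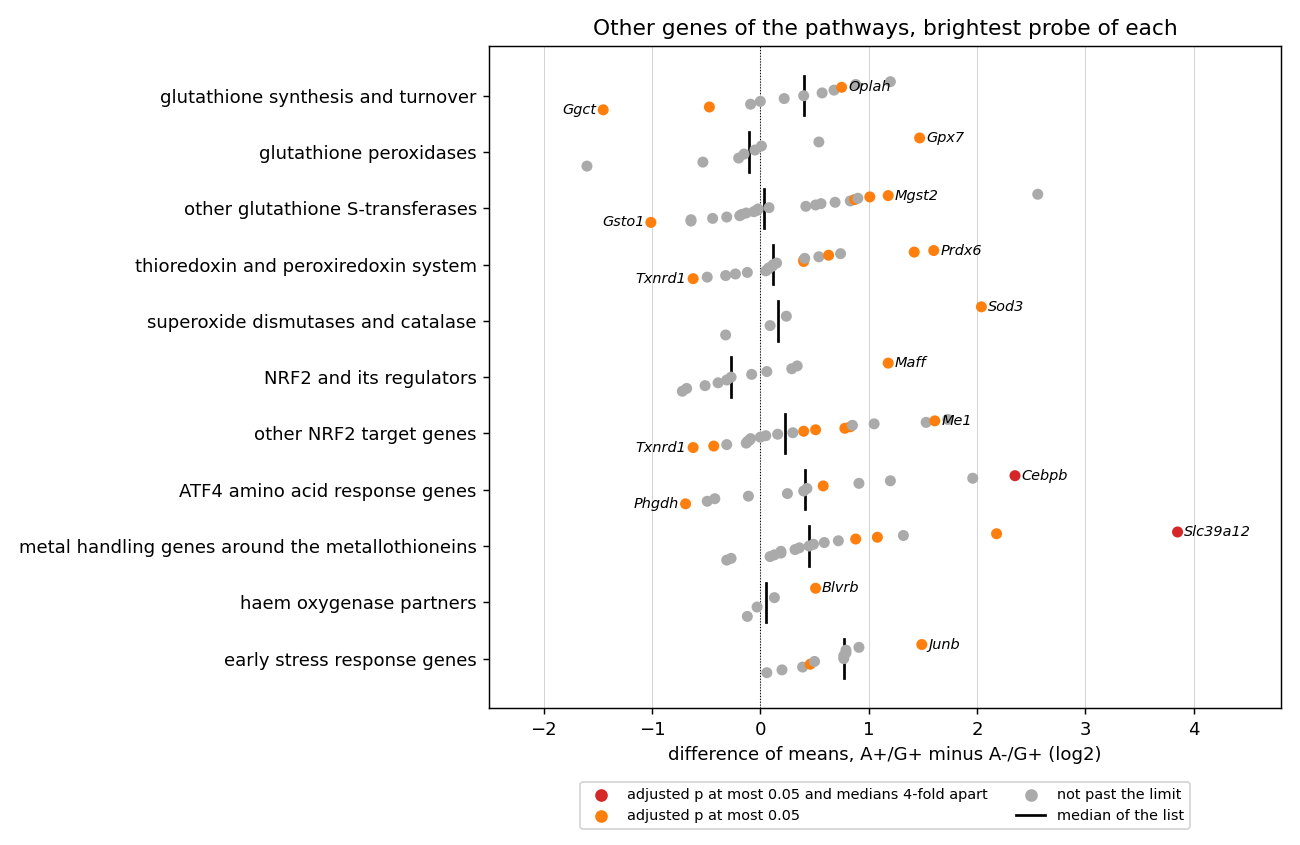
Log2 difference of the means, taken as A+/G+ minus A-/G+ (horizontal axis), for each listed gene by pathway (vertical axis), with black lines for the medians of the lists; red points were called, orange points passed and grey points did not pass. Slc39a12 at 3.85 and Cebpb at 2.35 are called, and the medians of the lists lie between -0.27 and 0.77.

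Early stress response genes, which the isolation itself can induce, were also listed. Of the 11 measured, 2 were higher in A+/G+, Junb by 1.49 and Hsp90aa1 by 0.46, and none was higher in A-/G+. The median of the list was 0.77. Fos, Jun, Egr1 and Atf3 differed by 0.79, 0.77, 0.79 and 0.91 without passing. The summed signal of the list was 76900 to 84400 in A+/G+ and 36600 to 63600 in A-/G+. These values moved in the direction of Slc7a11, Mt1 and Mt3, and their part in the results was not tested.

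Markers of cell types in the fractions moved as well. Of 11 astroglial markers, 4 were higher in A+/G+ and 1 was higher in A-/G+, and their summed signals overlapped (206000 to 220000 against 152000 to 240000). By contrast, 7 of 8 Bergmann glia markers were higher in A-/G+ (13700 to 16500 against 30700 to 52300). The paper reports several of these Bergmann glia markers as higher in A-/G+ on the same arrays, so that their direction was known beforehand. Higher in A+/G+ were 6 of 9 markers of ependymal cells (6150 to 8940 against 695 to 1390), 4 of 8 of meningeal cells (84500 to 102000 against 13900 to 42000), 3 of 7 of pericytes (2920 to 3380 against 687 to 1140), 3 of 6 of oligodendrocyte precursors (14000 to 17300 against 1900 to 4540), 4 of 6 of Purkinje cells (4940 to 13600 against 1590 to 2010) and 1 of 8 of endothelial cells (8250 to 12600 against 1880 to 8540). Of the defining markers, Dnah5 of ependymal cells, Calb1 and Car8 of Purkinje cells and P2ry12 and Mrc1 of microglia did not reach a signal well above background in A-/G+. Ppp1r17, a Purkinje marker that did not pass, and Epb4.2 of erythroid cells did not reach it in either fraction. Myh11, which is 1 of the 3 pericyte markers counted as higher in A+/G+, did not reach it in either fraction. Of 7 granule cell markers, 1 was higher in A-/G+, Pax6 with a difference of -1.54 (18300 to 21400 against 26000 to 31600). The median difference of these markers was 0.33, in the opposite direction to their summed signal. No marker passed among 11 of microglia (1540 to 2520 against 2100 to 4590), 6 of erythroid cells (8830 to 16200 against 2570 to 7840), 7 of the choroid plexus (24900 to 39200 against 23600 to 57000) and 8 of neurons (9660 to 17000 against 5600 to 10700), and Ptprc of microglia did not reach that level in either fraction. The part of these cells in the differences of the metallothionein and antioxidant genes was not tested.

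**Figure D4:**
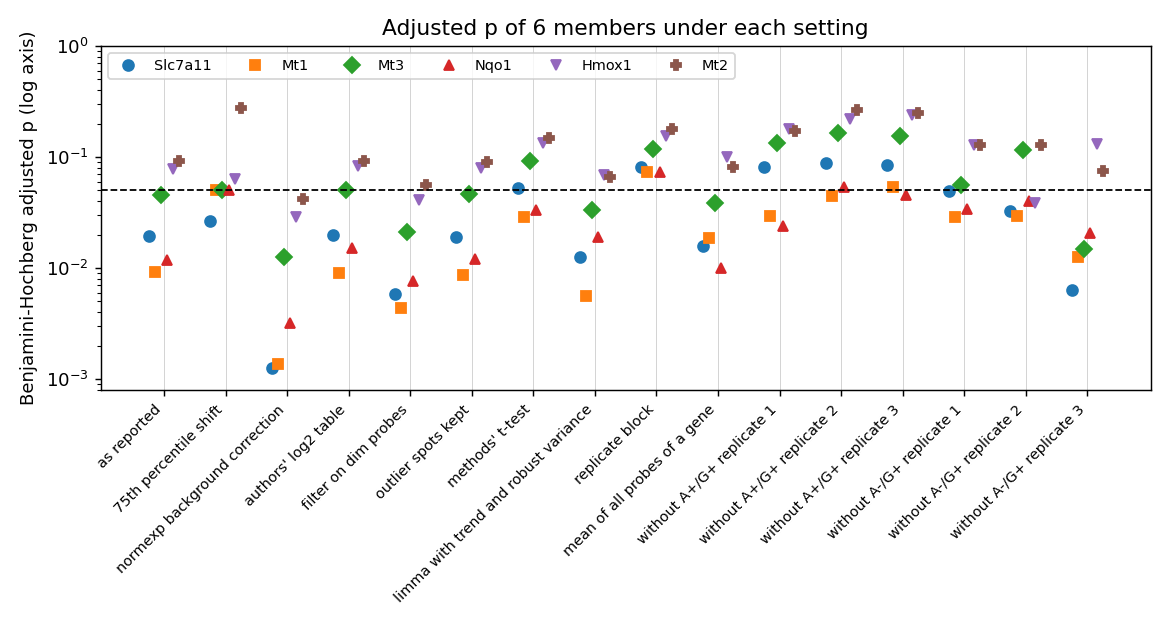
Benjamini-Hochberg adjusted p (vertical axis, log scale) of 6 genes as reported and under each alternative setting or array left out (horizontal axis), with the limit of 0.05 as a dashed line. Mt1 and Nqo1 cross the limit at the 75th percentile shift, at the replicate block and at 1 array each, Slc7a11 crosses it at the methods' t-test, at the replicate block and without any single A+/G+ array, and Mt3 lies near or above it at most settings.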

How the data were processed

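The authors deposited the scanner output of 6 arrays (Agilent Feature Extraction 10.7.3.1), which gives the background-corrected intensity of each spot, and a log2 table that they had quantile normalized. That table was used as an alternative. The members and the gene lists were chosen with earlier results of these data known.

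Control spots and spots marked as outliers by the software were left out. The log2 intensities were quantile normalized, which puts all arrays on 1 distribution although the A-/G+ arrays were dimmer, and values of the same probe were averaged. Differences between the fractions were fitted with limma 3.58.1 in R 4.3.3 without covariates and with Benjamini-Hochberg adjustment over 55681 probes. The limits for a call are those of the methods, which used Student's test. No filter on dim probes was applied. The fit was tested on simulated data. The p-values measure the spread between the 3 samples of a fraction, which the labels call biological replicates.

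Summed signals of marker lists add the linear normalized signals of the brightest probe of each gene. A marker of the erythroid list is not reported here, and the list is given without it. Named are all members and, per pathway list, at most 4 genes with the largest differences that passed and had signals well above background on each array of the brighter fraction, the antigen genes, and regulators that a sentence needed. Other listed genes, chosen after their values were seen, are named only to complete a count, to give a value that did not pass, or as a partner of a member. The array's own annotation gave the gene names and mm9 positions, and no mm9 gene models were used. As alternatives, each array was shifted to its 75th percentile, the background was corrected by normexp (offset of 50), dim probes were filtered, outlier spots were kept, and the deposited log2 table, the t-test of the methods, limma's trend and robust options, a 2-fold limit and the mean over a gene's probes were used. Each array was also left out in turn, and the replicate number was fitted as a block.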

Additional observations from a re-analysis of the deposited data

How the results depend on the processing

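As reported, 3 members passed with a higher signal in A+/G+ and 1 with a higher signal in A-/G+, 1 was called, and the median difference was 0.59. A shift of each array to its 75th percentile gave 1 and 0 members that passed and a median of 0.38. Over all probes, the number that passed went from 2589 and 2583 to 1227 and 2658 with this shift. Those called went from 851 and 222 to 604 and 938, and the median of all probes went from -0.04 to -1.02. The difference of Nqo1 remained at -0.89 after this shift and was then smaller in size than that median of all probes, and Slc7a11, Mt1 and Mt3 remained positive. Normexp background correction gave 5 members that passed higher in A+/G+, 0 called and a median of 0.40. Over all probes, 3511 and 3567 passed after normexp, and 234 and 48 were called. The methods' t-test gave 1 that passed higher in A+/G+ and 0 called, and a limit of 2-fold gave 2 called. With single arrays left out, 0 to 3 members passed higher in A+/G+ and 0 to 1 higher in A-/G+, 0 to 1 were called, and the median was 0.48 to 0.64. Counts over all probes are not given for the t-test, the 2-fold limit and the arrays left out. Whether those changes are particular to the members was not tested.

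The replicate numbers were not shown to pair the samples, because the correlations of the same-numbered samples were 0.09, 0.06 and 0.01, and 2 of the 3 A+/G+ samples correlated best with their own number. With the replicate block, 0 members passed in either direction and 0 were called, and over all probes the number that passed went from 5172 to 0.

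Of the pathway genes, 24 and 6 passed as reported, 11 and 2 after the 75th percentile shift, 40 and 9 after normexp and 15 and 4 without A-/G+ replicate 1, alternatives that were chosen after seeing the data. Over all probes, 2589 and 2583 passed as reported, 1227 and 2658 after the shift and 3511 and 3567 after normexp, so that the number passing over the whole array moved as well. The count over all probes without A-/G+ replicate 1 is not given. Signs turned for differences near 0. Gclc, at 0.04 as reported, ranged from -0.02 to 0.11 with single arrays left out (-0.02 without A+/G+ replicate 3 and -0.0014 without A-/G+ replicate 1), and the second Gstm1 probe to -0.02 after the 75th percentile shift and without A+/G+ replicate 2. Slc30a3, whose signal did not reach well above background on the arrays, went from 1.08 to -0.07 after the shift. The causes were not tested.

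Slc7a11 kept a positive difference of 2.11 to 3.38 under the alternatives that keep all arrays. Mt2 passed after normexp (limma, adjusted p = 0.0417), and Hmox1 passed after normexp (0.0289), with the filter on dim probes (0.0409) and without A-/G+ replicate 2 (0.0389). With 3 arrays per fraction and dimmer A-/G+ arrays, the values of Slc7a11 and Gclm in A-/G+ lie near the background, and small differences such as those of Srxn1 and Gstm1 were not detectable at this precision.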
